A study of Mus musculus with 16 samples.

Results

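The antigen presentation genes are the protein-coding genes whose symbol begins with H2-, the prefix of the mouse major histocompatibility complex (MHC), together with B2m, Tap1, Tap2, Tapbp, Psmb8, Psmb9, Psmb10, Nlrc5, Ciita, Cd74 and Erap1. Of the 49315 gene identifiers in the count table, 45 met this definition. The class I pathway held 33 of them and the class II pathway 11. The remaining member, H2-Ke6, is an enzyme gene of the MHC region that encodes no MHC chain. On GRCm38, 39 of the 45 lie on chromosome 17, and the others are B2m on chromosome 2, Psmb10 and Nlrc5 on chromosome 8, Erap1 on chromosome 13, Ciita on chromosome 16 and Cd74 on chromosome 18. A further 11 H2- symbols are annotated as pseudogenes and were left out.

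RNA was sequenced from primary murine tracheal epithelial cell cultures (MTECs), which are grown with air above and medium below so that basal cells give rise to ciliated and secretory cells. Cultures came from female (F) and male (M) mice on a C57BL/6J background that were either WT or labelled KO for Lman1, which encodes a cargo receptor between the endoplasmic reticulum and the Golgi. They were left naive or received 20 ug/ml house dust mite (HDM) extract overnight. F KO and M KO name the groups labelled KO. Each of the 8 groups held 2 libraries, described as biological replicates, so the p-values measure the spread between these cultures.

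Lman1 checks the genotype labels. It stood between 101 and 144 CPM (read counts scaled to library size with TMM factors) in the 8 WT libraries. Both F KO naive libraries held 12.8 CPM, the M KO naive libraries 14.2 and 63.4 CPM, and the 4 HDM libraries labelled KO between 65.0 and 78.0 CPM. The level of the targeted gene was thus lower in naive than in HDM libraries for F KO and for 1 of the 2 M KO naive libraries, while the other M KO naive library was near the HDM level, and the part of these differences in the results on KO cultures was not tested. Total counts ranged from 21860698 to 43442188. Among markers of the labelled cell type, Epcam and Cdh1 were abundant in every library, whereas Scgb1a1, a club cell secretoglobin, did not exceed 3.75 CPM in any. Of the other secretory cell markers, Cyp2f2 lay between 3753 and 18910 CPM. Scgb3a1, Scgb3a2, Bpifa1 and Muc5b reached 693, 357, 259 and 99.7 CPM, and Bpifb1 did not exceed 3.69 CPM.

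MHC class I molecules display peptides from inside the cell to CD8 T cells. Proteasomes cut proteins into peptides, the TAP transporter carries these into the endoplasmic reticulum, Erap1 trims them, and tapasin holds the empty heavy chain and beta-2 microglobulin beside TAP until a peptide binds. Class II molecules display peptides taken up from outside the cell to CD4 T cells, and are made mainly by dendritic cells, B cells and macrophages, although interferon-gamma can turn them on in epithelium. Nlrc5 and Ciita are related regulators that drive transcription of the class I and the class II genes, respectively.

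Class I transcripts were far more abundant than class II transcripts in all 8 groups. Per length, as TPM (counts divided by exon length and scaled to a common total), the median over the 16 libraries was 583 for B2m, 560.0 for H2-D1, 489 for H2-K1 and 318 for Tapbp. The next were H2-T23 at 93.6 TPM, Tap2 at 54.8 TPM, Psmb10 at 52.5 TPM and H2-Q4 at 41.9 TPM. The ranges of B2m (492 to 1389 TPM) and H2-D1 (492 to 827 TPM) overlapped, as did those of H2-D1 and H2-K1 (407 to 667 TPM). Among class II genes only Cd74, which encodes the invariant chain, exceeded 20 TPM at the median, with 28.7 TPM. The class II chains H2-Eb1, H2-Ab1 and H2-Aa had medians of 7.45, 6.75 and 2.55 TPM, and Ciita had 0.105 TPM.

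Enough reads for a test were present for 28 members, of which 20 were class I and 7 class II. The other 17 never exceeded 6 counts in a library. They were H2-M1, H2-M10.1 to H2-M10.6, H2-M5, H2-M9, H2-M11, H2-Q1, H2-Q10 and H2-T3 among class I, and H2-Eb2, H2-DMb2, H2-Oa and H2-Ob among class II. The H2-O and H2-DM proteins edit the peptides on class II molecules. Class I heavy chain genes are close copies of each other, and how reads that match several of them were counted is not stated, so values of single genes of the K, D, Q and T families are uncertain.

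The promoters below show which of 3 motifs lie upstream of class I genes with different responses and of a class II gene. RefSeq promoter entries (GRCm38.p6, 250 bases before to 50 bases after the annotated start) were matched for 38 of the 45 members. Capitals mark matches on either strand to a kB-type motif (GGG and TTCCC with any 2 bases between them), an IRF-type motif (GAA or GAAA, then any 2 bases, then GAAA) or a Y box (CTGATTGG, which holds an inverted CCAAT). The 200 bases before the start are printed 5′ to 3′ in the direction of the gene, for 5 class I genes that rose with HDM in F WT MTECs, for H2-Q2, which fell, and for the class II gene H2-Aa.
H2-K1, chr17:34000348-34000547, minus strand: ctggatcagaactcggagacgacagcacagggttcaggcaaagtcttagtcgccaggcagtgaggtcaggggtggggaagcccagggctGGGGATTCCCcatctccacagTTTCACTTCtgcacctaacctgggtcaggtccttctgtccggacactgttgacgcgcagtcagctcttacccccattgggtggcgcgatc
H2-D1, chr17:35262894-35263093, plus strand: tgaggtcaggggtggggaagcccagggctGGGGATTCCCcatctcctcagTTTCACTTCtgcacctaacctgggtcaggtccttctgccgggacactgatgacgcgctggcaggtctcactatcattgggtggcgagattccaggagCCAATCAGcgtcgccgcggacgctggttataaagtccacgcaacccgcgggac
H2-Q4, chr17:35379417-35379616, plus strand: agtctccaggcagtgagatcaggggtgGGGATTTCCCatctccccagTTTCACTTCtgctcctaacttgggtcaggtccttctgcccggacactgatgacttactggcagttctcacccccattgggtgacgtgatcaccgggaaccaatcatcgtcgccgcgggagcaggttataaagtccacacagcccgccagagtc
B2m, chr2:122147487-122147686, plus strand: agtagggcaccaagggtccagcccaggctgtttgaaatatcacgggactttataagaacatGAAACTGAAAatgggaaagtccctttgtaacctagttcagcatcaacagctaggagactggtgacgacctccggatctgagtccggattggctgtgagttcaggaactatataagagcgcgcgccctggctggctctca
H2-T23, chr17:36032702-36032901, minus strand: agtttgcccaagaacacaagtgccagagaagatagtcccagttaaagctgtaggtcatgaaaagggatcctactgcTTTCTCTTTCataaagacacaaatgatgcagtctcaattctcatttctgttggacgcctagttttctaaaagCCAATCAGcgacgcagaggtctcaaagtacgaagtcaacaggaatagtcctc
H2-Q2, chr17:35342107-35342306, plus strand: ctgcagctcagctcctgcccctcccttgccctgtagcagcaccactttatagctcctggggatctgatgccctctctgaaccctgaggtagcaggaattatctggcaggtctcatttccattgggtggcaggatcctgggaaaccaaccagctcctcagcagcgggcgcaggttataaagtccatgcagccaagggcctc
H2-Aa, chr17:34287824-34288023, minus strand: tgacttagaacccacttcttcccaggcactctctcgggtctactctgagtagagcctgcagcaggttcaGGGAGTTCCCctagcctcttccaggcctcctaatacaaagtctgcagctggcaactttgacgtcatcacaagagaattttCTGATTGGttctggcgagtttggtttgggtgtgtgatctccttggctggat

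In H2-K1, H2-D1 and H2-Q4 the kB-type match lay close upstream of an IRF-type match, from 111 to 102 bases and from 90 to 82 bases before the start in H2-K1, and from 171 to 162 and 150 to 142 bases before it in H2-D1. H2-Q6 and H2-Q7 held the same pair. B2m and H2-T23 held an IRF-type match without the kB-type, and H2-Q2 held none of the 3 motifs in this window. Tapbp, Psmb8 and Psmb10, which rose in F WT MTECs and are not printed, held none of the 3 either. Of the 29 class I genes with an entry, 12 held an IRF-type and 5 a kB-type match, against 10.4% and 1.75% of all promoters of that length. A kB-type match was also present in 2 of the 8 class II genes with an entry, H2-Aa and H2-Oa. None of the 8 class II genes with an entry held an IRF-type match, while 4 (H2-Aa, H2-Eb1, H2-Eb2 and H2-Oa) held a Y box, against 4.1% of all promoters. The Y box letters were also present in 15 of the 29 class I genes. The IRF-type match was found in 6 of the 10 class I genes with an entry that rose in F WT MTECs and in 5 of the 7 other tested class I genes with an entry, and the kB-type match in 3 and 2 of them. These matches are letters in a window and were not measured as binding sites.

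**Figure D1:**
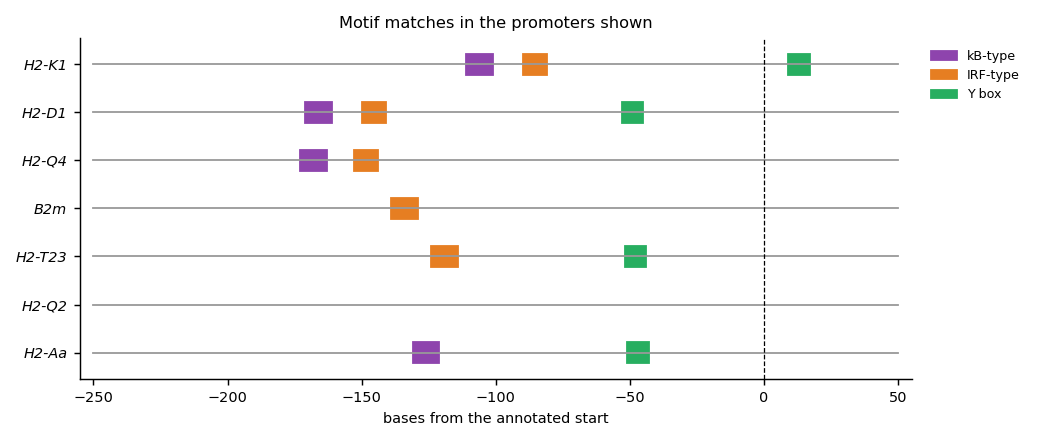
Positions of the kB-type (purple), IRF-type (orange) and Y box (green) matches in the 7 promoters printed; the x axis is the distance in bases from the annotated start (dashed line) and each grey line spans 250 bases before to 50 after it. The kB-type and IRF-type matches sit side by side in H2-K1, H2-D1 and H2-Q4, and H2-Q2 has no match.

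The first comparison asked what overnight HDM did within each sex and genotype. In F WT MTECs the light chain B2m, tapasin, both classical heavy chains, 2 of the 3 immunoproteasome subunits and several non-classical heavy chains rose, while Tap2, Erap1 and Psmb9 were not called. Of the 20 class I genes tested, 11 rose and 1 fell, and of the 7 class II genes none rose and 1 fell, where 43.1% of all 15993 genes tested were called in this comparison (20.6% higher and 22.4% lower). The median log2 fold change was 0.52 over the class I genes, -0.29 over the class II genes and -0.02 over all genes. Summed over the 33 class I members, the level went from 1544 and 1624 CPM in the naive libraries to 2666 and 2779 CPM with HDM. The epithelium itself moved in the same comparison, in which all 7 secretory, 3 of 5 basal and 3 of 6 ciliated cell markers fell and none rose. Of 9 general airway epithelial markers, 4 rose (Krt8, Krt18, Epcam and Cdh1) and 4 fell (Krt5, Trp63, Muc5b and Scgb1a1). The summed level of 7 secretory cell markers was 13183 and 17436 CPM in the naive and 3764 and 4654 CPM in the HDM libraries. This sum was mostly Cyp2f2, which was at 3753 CPM or more in every library. The median log2 fold change over the 7 markers was -5.34. The summed level of 5 basal cell markers was 5983 to 7292 CPM in the naive and 2043 to 3977 CPM in the HDM libraries. In bulk RNA a change in the number of cells of one type and a change in RNA per cell cannot be told apart, and the part of these markers in the class I result was not tested.

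Among the classical heavy chains, H2-K1 was at 380.0 and 352 CPM in F WT naive MTECs and at 599 and 598 CPM in F WT HDM MTECs. In the other 6 groups it lay between 347 CPM in F KO HDM and 499 CPM in M WT HDM. H2-D1 was at 420.0 and 399 CPM in F WT naive MTECs and at 652 and 655 CPM after HDM, and did not exceed 504 CPM in any of the other 6 groups. Both F WT HDM libraries were thus above all 14 others for both chains. How many of all genes had this order of libraries was not counted. The log2 fold change was 0.71 (SE 0.09) for H2-K1 and 0.67 (SE 0.09) for H2-D1, with edgeR adjusted p = 0.000114 and 0.000107.

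B2m encodes beta-2 microglobulin, the light chain that every class I heavy chain needs for folding. It was at 126 and 136 CPM in F WT naive and at 365 and 369 CPM in F WT HDM MTECs, and between 128 and 178 CPM in all 12 libraries of the other groups. This was a 2.81-fold rise (log2 1.49, SE 0.09, edgeR adjusted p = 5.15e-07), the clearest of the members by adjusted p. Tapbp, which encodes tapasin, rose from 319 and 303 CPM to 593 and 549 CPM, a log2 fold change of 0.88 (SE 0.07, edgeR adjusted p = 3.07e-06). The transporter subunits differed from each other: Tap1 rose from 50.4 and 49.9 CPM to 72.9 and 60.3 CPM (log2 0.41, SE 0.11, edgeR adjusted p = 0.0111), whereas Tap2 was at 69.2 and 58.8 CPM before and at 62.5 and 51.4 CPM after HDM (log2 -0.17, SE 0.13, edgeR adjusted p = 0.323). The call for Tap1 was lost without either F WT naive replicate and without F WT HDM replicate 1, where the log2 fold change was 0.26 (adjusted p = 0.116). Erap1, the trimming peptidase, was at 45.3 and 44.2 CPM before and 57.9 and 46.3 CPM after HDM and was not called (edgeR adjusted p = 0.0657). In the other 6 groups Tapbp lay between 319 and 407 CPM, Tap1 between 40.0 and 55.2 CPM, Tap2 between 53.3 and 81.1 CPM and Erap1 between 43.8 and 62.1 CPM.

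The immunoproteasome replaces 3 constitutive catalytic subunits of the proteasome, and its own 3 subunits did not move together. Psmb8 rose from 11.5 and 12.1 CPM to 26.6 and 22.2 CPM (log2 1.05, SE 0.16, edgeR adjusted p = 0.000302). Psmb10 rose from 25.0 and 26.3 CPM to 35.2 and 32.3 CPM (log2 0.39, SE 0.09, edgeR adjusted p = 0.00367). Psmb9 was at 5.30 and 4.74 CPM before and at 6.11 and 4.40 CPM after HDM, with a log2 fold change of 0.07 (SE 0.20, edgeR adjusted p = 0.799). Psmb9 and Tap1 are transcribed away from each other and their annotations overlap, and whether counting used the strand is not stated, so reads of the pair may be shared. Set against the constitutive subunit it replaces, Psmb8 went from 7.35 and 7.34 counts per 100 counts of Psmb5 in F WT naive MTECs to 16.8 and 12.9 with HDM. In F KO MTECs the same ratio was 7.42 and 7.48 in naive and 7.67 and 7.56 in HDM libraries. Psmb10 per 100 counts of Psmb7 went from 18.7 and 18.6 to 23.01 and 19.0 in F WT MTECs, and reached 22.9 and 24.2 in M WT HDM MTECs. Psmb9 per 100 counts of Psmb6 was at 3.87 and 3.27 before and at 3.84 and 2.65 after HDM in F WT MTECs, so its groups overlapped.

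**Figure D2:**
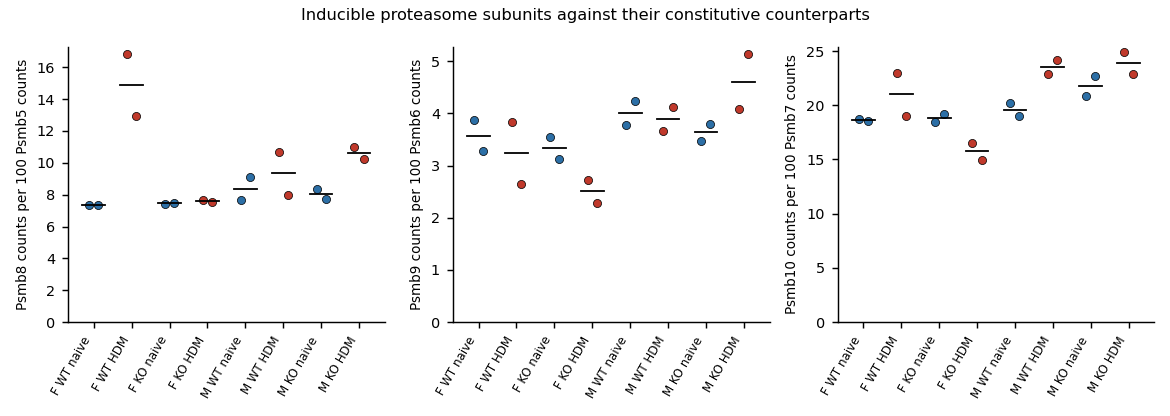
Counts of each inducible proteasome subunit per 100 counts of the constitutive subunit it replaces (y axes) in the 8 groups (x axis); blue points are naive and red points HDM libraries, and black lines are means of 2. Psmb8 per Psmb5 reaches 16.8 and 12.9 in F WT HDM and lies between 7.34 and 11.0 in all other libraries.

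Non-classical heavy chains followed in part. H2-T23, which encodes the Qa-1 molecule that engages NKG2 receptors, rose from 81.2 and 78.2 CPM to 176 and 161 CPM (log2 1.08, SE 0.16, edgeR adjusted p = 0.000237). H2-Q4 rose from 34.5 and 28.7 CPM to 57.9 and 46.6 CPM (log2 0.73, SE 0.12, edgeR adjusted p = 0.000648), and H2-T22, a ligand of some gamma-delta T cells, from 36.0 and 32.4 CPM to 54.0 and 51.2 CPM (log2 0.62, SE 0.11, edgeR adjusted p = 0.000785). H2-Q2 went the other way. It was at 2.32 and 2.11 CPM before and at 0.915 and 0.568 CPM after HDM, a 2.96-fold fall (log2 -1.56, SE 0.28, edgeR adjusted p = 0.000953). H2-M3, which presents formylated bacterial peptides, was at 6.97 and 7.14 CPM before and at 7.11 and 8.19 CPM after HDM and was not called. In the other 6 groups H2-T23 lay between 68.1 and 96.5 CPM, H2-Q4 between 27.2 and 46.8 CPM and H2-T22 between 28.8 and 36.6 CPM.

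Nlrc5, the class I regulator, was scarce in all groups. It was at 0.871 and 0.921 CPM in F WT naive MTECs and at 4.83 and 1.89 CPM in F WT HDM MTECs, and between 0.541 and 1.5 CPM in the other 12 libraries. Its log2 fold change of 1.90 (SE 0.48, edgeR adjusted p = 0.00777) rested on 1 library, since without F WT HDM replicate 1 it was 1.07 with an adjusted p of 0.111. The call was also lost without F WT naive replicate 1 (adjusted p = 0.0517).

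**Figure D3:**
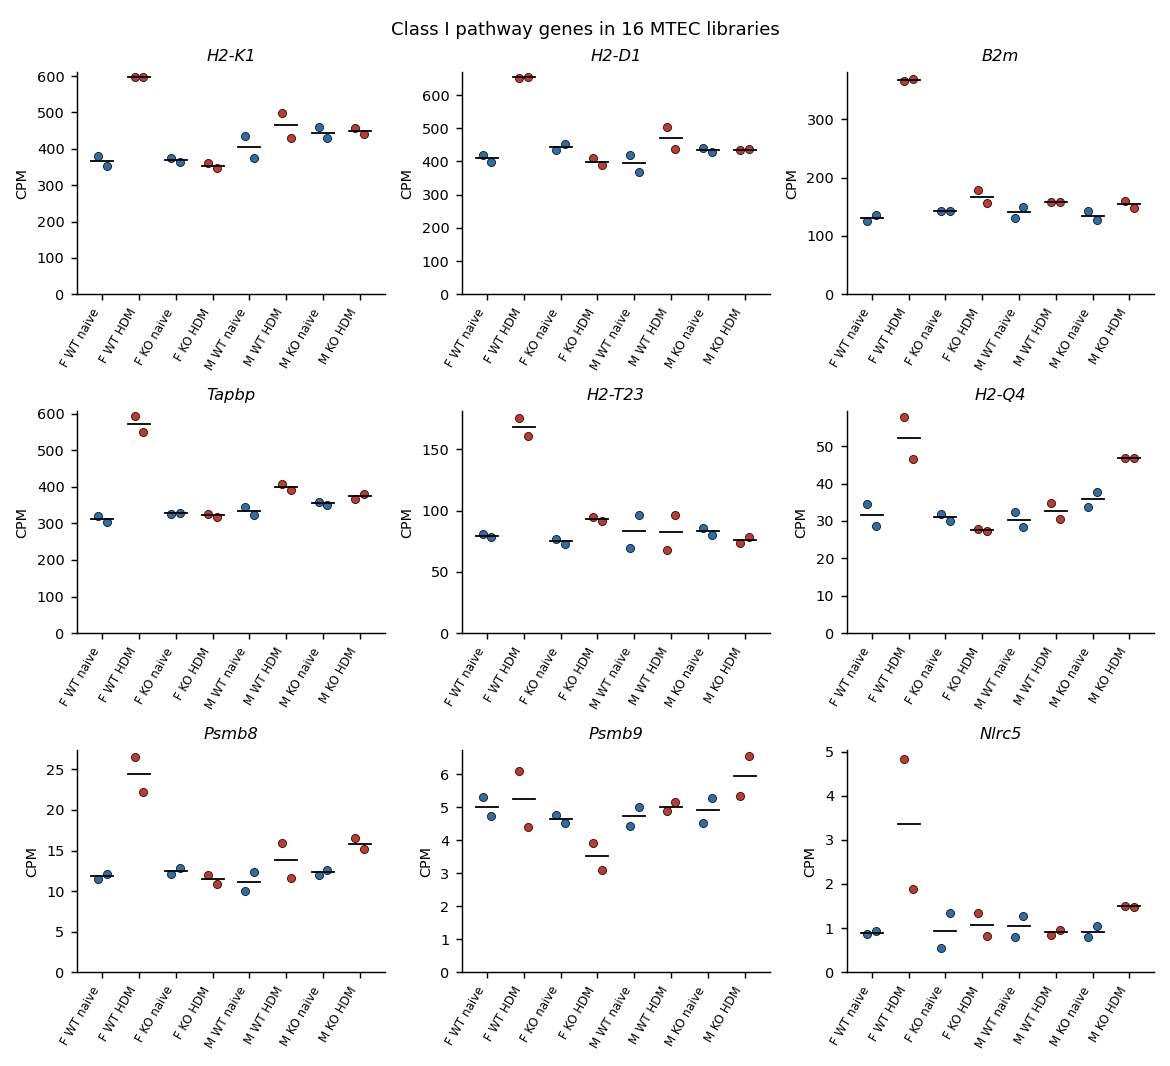
CPM (y axes, from 0) of 9 class I pathway genes in the 8 groups (x axis); each point is a library (blue naive, red HDM) and the black line is the mean of 2. H2-K1, H2-D1, B2m, Tapbp, H2-T23 and Psmb8 are highest in both F WT HDM libraries, while Psmb9 is not, and Nlrc5 is uneven between them (4.83 and 1.89 CPM).

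In F KO MTECs the class I genes did not show this rise. One of the 28 members was called after HDM, H2-Q2, which fell from 1.37 and 1.36 CPM to 0.524 and 0.608 CPM (log2 -1.26, SE 0.29, edgeR adjusted p = 0.0182), where 10.4% of all genes tested were called (4.63% higher and 5.77% lower). Leaving out any one of the 4 F KO libraries removed that call. The class I median was -0.10 and the summed class I level was 1630.4 and 1645 CPM in the naive and 1559 and 1645 CPM in the HDM libraries. The summed secretory markers, again mostly Cyp2f2, were at 7228 and 7876 CPM in the HDM and at 13197 and 15962 CPM in the naive libraries. Of these 7 markers 4 fell and none rose, with a median log2 fold change of -2.07. The summed basal markers went the other way than in F WT MTECs, from 6532 and 7518 CPM to 9939 and 8479 CPM with HDM. None of these 5 basal markers was called in F KO MTECs, however, and their median log2 fold change was 0.08. The part of these markers in the class I levels was not tested. B2m was at 143 and 142 CPM before and at 178 and 157 CPM after HDM. H2-T23 was at 77.0 and 73.1 CPM before and at 94.8 and 91.9 CPM after HDM, with both HDM libraries above both naive ones, but it was not called (log2 0.31, SE 0.16, edgeR adjusted p = 0.230), except with only the F KO libraries fitted (adjusted p = 0.0230) and without a filter (adjusted p = 0.0301).

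No member was called after HDM in male MTECs of either genotype, where 0% of all genes tested were called in each. Among the 28 members, 3 in M WT and 2 in M KO had an unadjusted p under 0.05, and DESeq2 called 0 in both. The summed class I level was 1607 and 1671 CPM in M WT naive and 1810.3 and 1921 CPM in M WT HDM MTECs, and 1732 and 1766 CPM in M KO naive and 1819.9 and 1841 CPM in M KO HDM MTECs. In both male genotypes the 2 HDM sums therefore lay above the 2 naive sums, but below both F WT HDM libraries.

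**Figure D4:**
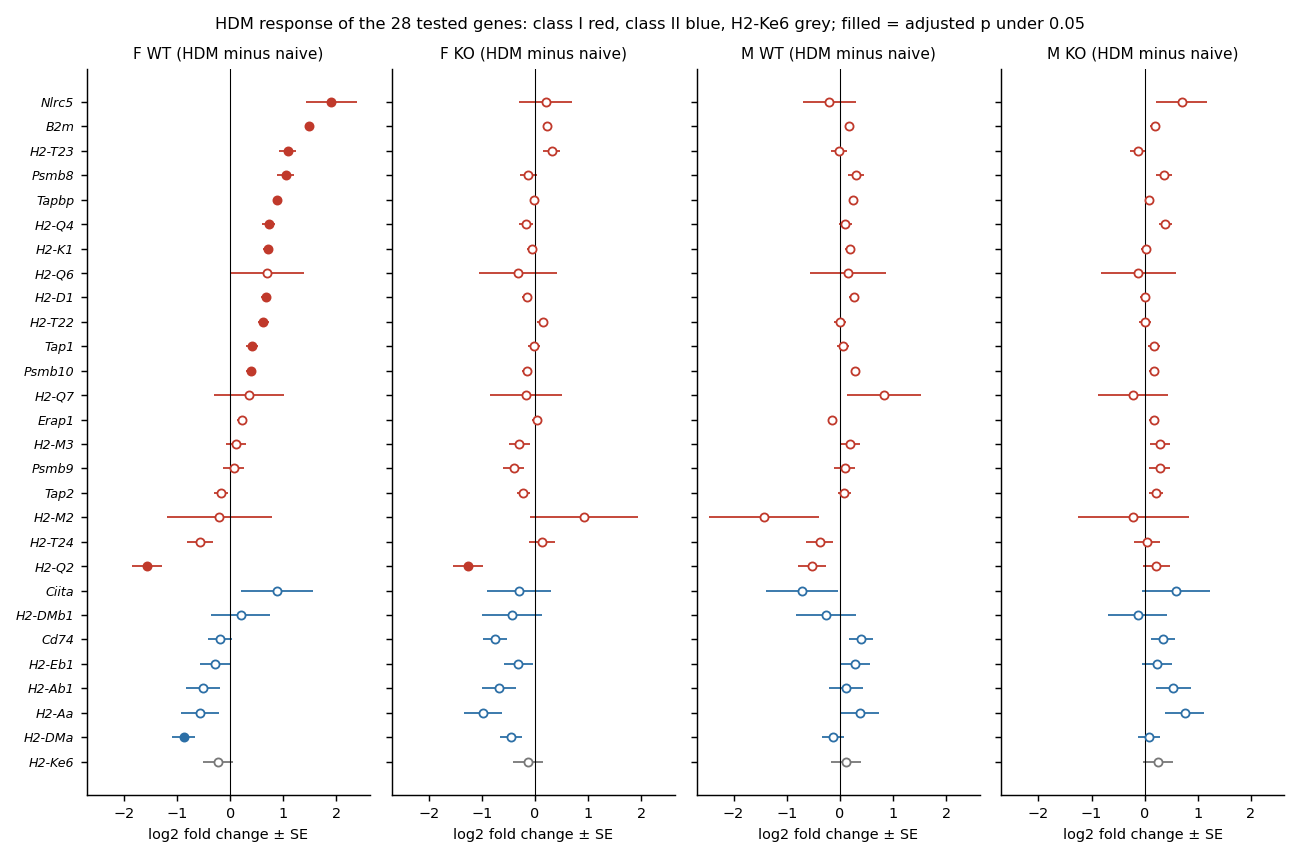
Log2 fold change of HDM against naive MTECs with its standard error (x axes) for the 28 tested members (y axis) in the 4 sex and genotype groups; class I red, class II blue, H2-Ke6 grey, filled points called at an adjusted p under 0.05. Of the 12 class I points called in F WT, 11 lie to the right of 0, and the other panels hold 1 called point, H2-Q2 in F KO.

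The HDM responses were then compared between sexes and between genotypes in the same model. The response of 9 class I genes was higher in F WT than in M WT MTECs, and none was lower, where 24.2% of all genes tested differed (11.3% higher). They were B2m, Nlrc5, Tapbp, H2-K1, Psmb8, H2-D1, H2-Q4, H2-T23 and H2-T22, with differences from 0.42 for H2-D1 to 2.10 for Nlrc5 on the log2 scale. B2m differed by 1.31 (SE 0.12, edgeR adjusted p = 3.85e-05) and H2-T23 by 1.09 (SE 0.22, edgeR adjusted p = 0.00445). B2m, Tapbp and H2-T23 kept the call in all 15 alternatives, and they were the 3 called when only the 8 WT libraries were fitted. Nlrc5 lost the call in 9 of the 15, H2-D1 in 8, Psmb8 in 6, H2-Q4 in 5, H2-K1 in 4 and H2-T22 in 3. Without F WT naive replicate 2 the count was 3, and without M WT HDM replicate 2 it was 4. The response of 8 class I genes was lower in F KO than in F WT MTECs and none was higher, where 11.2% of all genes tested differed (6.16% higher and 5.08% lower). B2m differed by -1.26 (SE 0.12, edgeR adjusted p = 0.000237) and Tapbp by -0.90 (SE 0.10, edgeR adjusted p = 0.000340), followed by Psmb8, H2-D1, H2-Q4, H2-K1, H2-T23 and Psmb10. The call for H2-T23 was lost in 10 of 15 alternatives, among them the removal of any of the 8 female libraries (the highest adjusted p was 0.146). Psmb10 lost the call in 3, without F WT naive replicate 1, F KO naive replicate 2 or F KO HDM replicate 2.

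Between M KO and M WT no response differed (0% of all genes tested, 1 member with an unadjusted p under 0.05, 0 by DESeq2), and between F KO and M KO none of the members was called (3.56% of all genes tested, 10 members with an unadjusted p under 0.05, 2 by DESeq2). None of the 7 class II genes was called in any of these 4 differences in the edgeR model of all 8 groups. Between F KO and M KO, DESeq2 called H2-Aa (log2 -1.73, adjusted p = 0.0270) and Cd74 (log2 -1.11, adjusted p = 0.0201), where it called 1192 of 15993 genes in all. edgeR with only the compared libraries also called Cd74 (adjusted p = 0.0339) and H2-Aa (adjusted p = 0.0480), and edgeR without a filter called these and H2-Ab1 (adjusted p = 0.00756).

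The genotypes were compared within each sex and treatment. Naive KO and WT MTECs did not differ in any member by edgeR, in females (0% of all genes tested, 3 members with an unadjusted p under 0.05, 0 by DESeq2) or males (0%, 2 members and 0 by DESeq2). In HDM-treated females, 13 of the 20 class I genes were lower in KO than in WT, none was higher and no class II gene was called, where 29.2% of all genes tested were called (14.3% lower). The class I median was -0.63 against 0.00 over all genes. This comparison shares the F WT HDM libraries with those above. In it, 5 of 7 secretory and 3 of 5 basal markers were higher in KO and none was lower, and of 9 general airway epithelial markers 3 were higher (Krt5, Trp63 and Scgb1a1) and 2 lower (Krt18 and Epcam). Their part in the class I differences was not tested. B2m was at 178 and 157 CPM in F KO HDM against 365 and 369 CPM in F WT HDM MTECs, a 2.19-fold lower level (log2 -1.13, SE 0.09, edgeR adjusted p = 1.38e-05). Tapbp was at 326 and 319 CPM against 593 and 549 CPM, 1.77-fold lower (log2 -0.83, SE 0.07, edgeR adjusted p = 2.19e-05). Psmb8, H2-Q4, H2-T23, H2-K1, H2-D1, H2-T22, Psmb10, Tap1 and Nlrc5 were lower as well, with log2 differences from -0.39 for Tap1 to -1.65 for Nlrc5. The call for Tap1 was lost in 3 of 11 alternatives, among them without F WT HDM replicate 1 or F KO HDM replicate 2.

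Psmb9 and H2-M3 were lower in F KO HDM than in F WT HDM MTECs although neither was called in the F WT response. Psmb9 was at 3.91 and 3.11 CPM against 6.11 and 4.40 CPM (log2 -0.59, SE 0.20, edgeR adjusted p = 0.0468), and its call was lost in 6 of 11 alternatives, among them without F WT HDM replicate 1 (log2 -0.32) and without either F KO HDM library. H2-M3 was at 4.80 and 4.97 CPM against 7.11 and 8.19 CPM (log2 -0.65, SE 0.19, edgeR adjusted p = 0.0269), and its call was lost in 4 of 11, among them without F WT HDM replicate 2 or either F KO HDM library. Nlrc5 lost its call in 4 of 11, among them without either F KO HDM library and without F WT HDM replicate 1 (log2 -0.81, adjusted p = 0.249). In HDM-treated males no member differed between KO and WT (0% of all genes tested, 3 members with an unadjusted p under 0.05), and DESeq2 called 1, H2-Q4, at 46.8 and 46.7 CPM in KO and 34.7 and 30.6 CPM in WT (log2 0.52, adjusted p = 0.0135), among 562 of 15993 genes it called.

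The sexes were compared within each genotype and treatment. Among naive MTECs no member was called in WT (0.1% of all genes tested, with 0.075% higher and 0.025% lower, 4 members with an unadjusted p under 0.05, 1 by DESeq2, Erap1) or in KO (0.188% of all genes tested, with 0.119% higher and 0.0688% lower, 7 members with an unadjusted p under 0.05, 3 by DESeq2). DESeq2 called 204 and 216 of 15993 genes in these comparisons. With HDM, M WT MTECs were lower than F WT MTECs in 10 class I genes and higher in H2-Q2 and the class II gene H2-DMa, where 41.6% of all genes tested were called (20.3% lower and 21.3% higher). This comparison, too, uses the F WT HDM libraries. B2m was 2.32-fold lower (log2 -1.21, SE 0.09, edgeR adjusted p = 2.09e-06). H2-Q2 and H2-DMa each lost the call in 4 of 11 alternatives, and H2-K1 and Nlrc5 in 2. In KO MTECs with HDM 10 class I genes were higher in males and none was lower, where 25.3% of all genes tested were called (12.9% higher). These were H2-Q2, H2-Q4, Psmb9, H2-M3, Tap2, Psmb8, Psmb10, Erap1, H2-K1 and Tapbp. Among them H2-Q4, Psmb8, H2-K1 and Tapbp were called in the opposite direction in WT, while H2-Q2 was higher in males in both genotypes. The other genes lower in M WT, such as B2m and H2-D1, were not called in KO. Without either M KO HDM library or F KO HDM replicate 2 the count fell to 4, and without F KO HDM replicate 1 to 5. H2-Q2 was at 2.28 and 2.85 CPM in M KO HDM and at 0.524 and 0.608 CPM in F KO HDM MTECs, 4.5-fold higher in males (log2 2.17, SE 0.28, edgeR adjusted p = 0.000363). Tap2, at 81.1 and 76.3 CPM against 54.0 and 53.3 CPM, and Psmb9, at 5.35 and 6.57 CPM against 3.91 and 3.11 CPM, were 1.47-fold and 1.70-fold higher.

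Class II transcripts were scarce throughout and followed another order of groups. Cd74 encodes the invariant chain, which guards the class II groove until the molecule reaches the endosome. It was highest in F KO naive MTECs, at 25.0 and 24.6 CPM, and was at 20.0 and 13.6 CPM in F WT naive MTECs. With HDM it was at 15.3 and 14.0 CPM in F KO and 15.8 and 13.5 CPM in F WT MTECs. In males it was at 13.5 and 10.2 CPM in WT naive, 13.0 and 18.2 in WT HDM, 9.99 and 12.0 in KO naive and 11.8 and 16.2 CPM in KO HDM MTECs. M KO naive MTECs lay below M WT HDM MTECs, and the other pairs of male groups overlapped.

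The class II chains had the same highest group. H2-Aa, the alpha chain of I-A, was at 6.04 and 5.70 CPM in F KO naive MTECs and between 1.79 and 4.51 CPM in the 14 other libraries. H2-Ab1, its beta chain, was at 8.40 and 7.49 CPM in F KO naive and between 2.76 and 7.26 CPM elsewhere. H2-Eb1, the beta chain of I-E, was at 6.72 and 7.77 CPM in F KO naive and between 2.39 and 6.33 CPM elsewhere. For these 3 chains both F KO naive libraries stood above all others, yet no difference between F KO and F WT naive MTECs was called (edgeR adjusted p = 1.00 for each, log2 0.78 for H2-Aa, 0.33 for H2-Ab1 and 0.56 for H2-Eb1). These 3 chains were added after their values were seen, and how many of all genes had such an order of libraries was not counted. Summed over the 11 class II members the level was 51.1 and 51.4 CPM in F KO naive MTECs and between 22.6 and 41.0 CPM in the other 14 libraries.

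HDM in F KO MTECs was 1 of the comparisons in which class II calls depended on the fit. Cd74 changed by -0.76 on the log2 scale (SE 0.23) with an edgeR adjusted p of 0.0550, just above the threshold, and was called by DESeq2 (adjusted p = 0.0166, among 2106 of 15993 genes called) and when only the F KO libraries were fitted (adjusted p = 0.00172). H2-Aa changed by -0.97 (SE 0.36, edgeR adjusted p = 0.109) and H2-Ab1 by -0.68 (SE 0.32, edgeR adjusted p = 0.211), and both were called with only the F KO libraries (adjusted p = 0.0139 and 0.0272). All 7 tested class II genes had a negative log2 fold change in this comparison, with a median of -0.45 against -0.00 over all genes. M KO and F KO naive MTECs, which share the F KO naive libraries with it, were another comparison of this kind. Cd74 differed by -1.17 on the log2 scale (SE 0.23, edgeR adjusted p = 0.0770), and DESeq2 called Cd74 (adjusted p = 0.000471), H2-Aa (adjusted p = 0.0383) and H2-Eb1 (adjusted p = 0.0475) lower.

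The remaining class II members had little signal. H2-DMa, an editor of class II peptides, was at 3.30 and 2.76 CPM in F WT naive and at 1.46 and 1.85 CPM in F WT HDM MTECs, a 1.83-fold fall (log2 -0.88, SE 0.22, edgeR adjusted p = 0.00682), and its call was lost in 3 of 11 alternatives, among them without F WT naive replicate 1 or F WT HDM replicate 1 (the highest adjusted p was 0.0545). H2-DMb1 lay between 0.598 and 2.25 CPM. Ciita, the class II regulator, lay between 0.138 and 0.619 CPM, with no more than 20 counts in a library, and its log2 fold change with HDM in F WT MTECs was 0.89 (SE 0.68, edgeR adjusted p = 0.321). H2-Ke6 lay between 2.02 and 4.54 CPM and was called in no comparison by edgeR.

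Markers of leukocytes were measured beside the class II genes, since these genes are typical of such cells. Csf1r, the macrophage growth factor receptor, was at 31.4 and 29.7 CPM in F KO naive, 27.02 and 21.7 in F WT naive, 21.9 and 22.6 in F KO HDM and 15.1 and 13.9 CPM in F WT HDM MTECs, and between 10.5 and 19.7 CPM in the male libraries. Laptm5, a lysosomal protein of blood cells, was at 21.05 and 17.3 CPM in F KO naive MTECs and between 6.36 and 16.4 CPM in all others. Both markers thus had the same highest group as Cd74 and the 3 chains, but they were picked from lists of 6 macrophage and 5 leukocyte markers. The summed level of 5 leukocyte markers was 37.5 and 38.7 CPM in F KO naive MTECs and between 14.6 and 33.8 CPM in the other libraries. All 6 macrophage markers were detected, with sums between 106 and 303 CPM, of which the highest was in M KO HDM MTECs. Their sum was 268 and 262 CPM in F KO naive MTECs, below F WT naive replicate 1 at 289 CPM. This sum had another highest group than the class II genes, but it leaned on Lyz2, which reached 238 CPM. No other macrophage marker exceeded 33.3 CPM. Adgre1, Csf1r, Cd68, Mrc1 and Itgam each had their highest value in an F KO naive library, as Cd74 and the 3 chains did. Of 6 dendritic cell markers, Cd209a was at 0 in all libraries and Flt3 did not exceed 0.0927 CPM, while Zbtb46 had more than 3 counts in all 16 libraries (up to 1.25 CPM), Itgax in 10 and Xcr1 in 8. Of the B cell markers Ms4a1 did not exceed 0.0345 CPM, while Cd79b had more than 3 counts in 13 libraries (up to 0.945 CPM). Of 5 T cell markers Cd3d was at 0 in all libraries and Cd3e and Cd8a did not exceed 0.0336 CPM, while Cd4 had more than 3 counts in 10 libraries (up to 0.433 CPM). Trac, a T cell receptor chain gene, was the 1 T cell marker that rose with HDM in F WT MTECs, to 1.16 and 1.51 CPM. In that comparison 3 of 6 macrophage markers (Lyz2, Cd68 and Csf1r) and 1 of 5 leukocyte markers (Laptm5) fell, and in F KO MTECs 1 macrophage marker, Cd68, fell. The part of macrophage RNA in the class II levels was not tested.

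**Figure D5:**
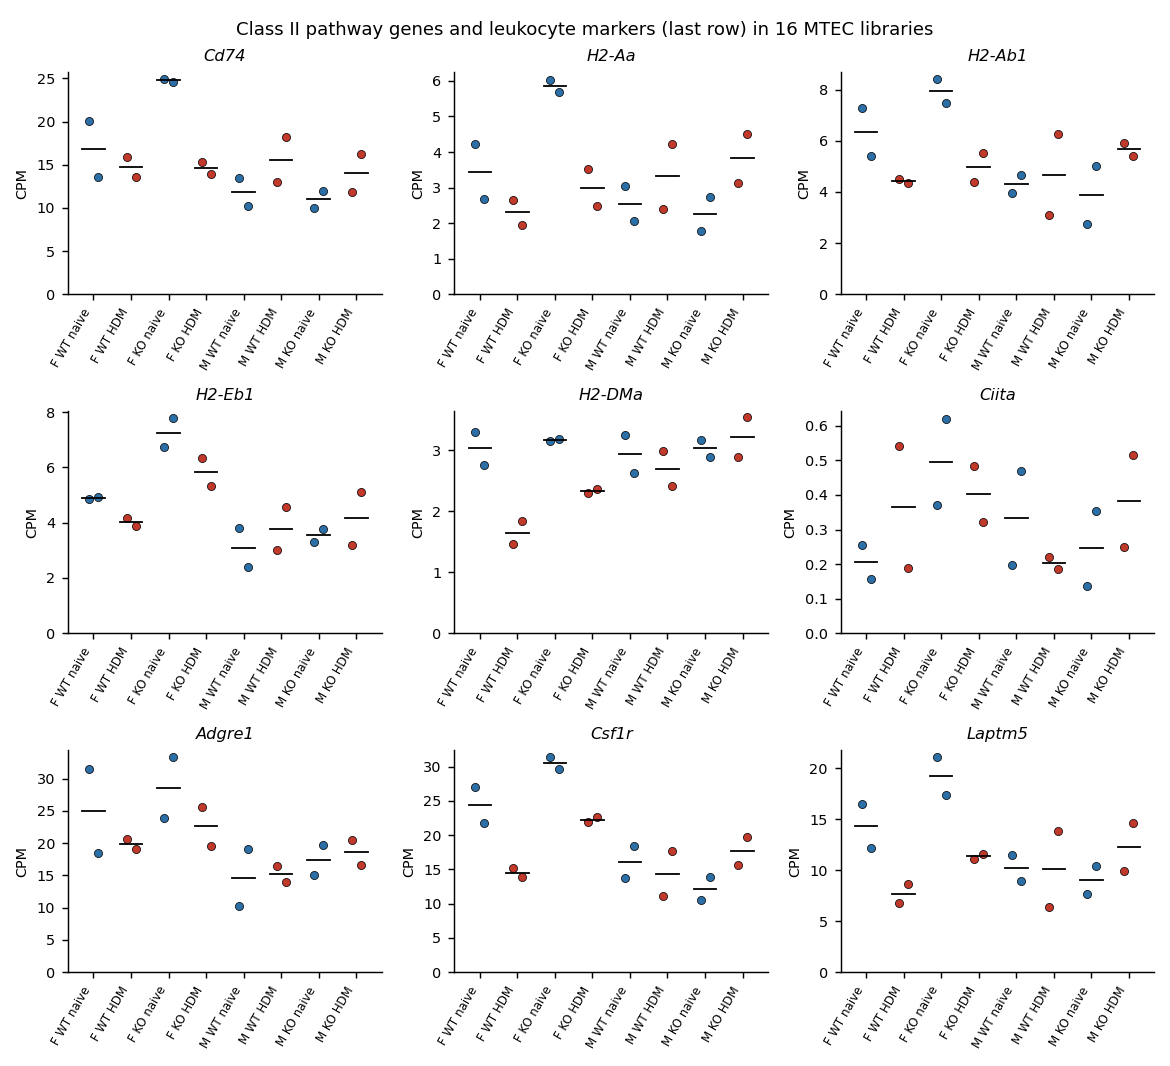
CPM (y axes, from 0) of 6 class II pathway genes (top and middle rows) and 3 leukocyte markers (bottom row) in the 8 groups (x axis); points are libraries (blue naive, red HDM) and black lines means of 2. F KO naive holds the highest values of Cd74, H2-Aa, H2-Ab1 and H2-Eb1, as it does for Adgre1, Csf1r and Laptm5. The sum of the macrophage markers, not drawn, leans on Lyz2 and is highest in M KO HDM.

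Of 6 fibroblast markers, 2 (Dcn and Lum) rose with HDM in F WT MTECs, with a median of 1.75 on the log2 scale over the list, and 3 (Pdgfra, Dcn and Lum) were lower in F KO HDM than in F WT HDM MTECs, with a median of -3.29. The summed level of the 6 was 25.9 and 525 CPM in the F WT naive and 47.5 and 577 CPM in the F WT HDM libraries, and in both groups replicate 2 was the high one. In these 2 F WT HDM libraries the class I values were 599 and 598 CPM for H2-K1 and 365 and 369 CPM for B2m. Without F WT HDM replicate 2 the count of members called in the F WT response was 14 in place of 13. The part of fibroblast RNA in the class I result was not tested.

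Other genes of the pathway, outside the definition, were described from lists. Of 14 partners in peptide supply and class I loading, 8 rose and none fell with HDM in F WT MTECs, where 20.6% of all genes tested rose and 22.4% fell, and none was called in F KO MTECs (10.4% of all genes tested). Calr, a chaperone of the loading complex, rose from 659 and 761 CPM to 1384 and 1349 CPM (log2 0.94, SE 0.18, edgeR adjusted p = 0.00145). Canx, which binds newly made heavy chains, rose from 447 and 488 CPM to 843 and 897 CPM (log2 0.90, SE 0.10, edgeR adjusted p = 5.02e-05). The proteasome activator subunit Psme2 rose by 0.48 (SE 0.06, edgeR adjusted p = 0.000106) and the tapasin relative Tapbpl by 0.42 (SE 0.08, edgeR adjusted p = 0.00146). Calr, Canx and Pdia3 also serve general protein folding. The constitutive subunits Psmb6 and Psmb7 rose by 0.21 and 0.23, and Psmb5, Psme3, Lnpep, Npepps, Thop1 and Nrd1 were not called. Between F KO and F WT MTECs with HDM, 6 genes of this list were lower and 1 was higher in KO, where 14.3% of all genes tested were lower and 14.9% higher.

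Of 15 tested genes of the interferon axis, 8 rose and 2 fell with HDM in F WT MTECs, against 20.6% and 22.4% of all genes tested. Socs1, a feedback inhibitor of interferon signalling, rose from 1.96 and 2.16 CPM to 4.87 and 4.97 CPM (log2 1.25, SE 0.24, edgeR adjusted p = 0.00136), and the receptor chain Ifngr1 from 69.5 and 68.1 CPM to 105 and 139.7 CPM (log2 0.83, SE 0.13, edgeR adjusted p = 0.000346). Irf1 rose by 0.23, whereas Irf2 fell by 0.51 and Irf8 by 0.63. The interferon genes themselves were not tested, with Ifnl2 and Ifnl3 at 0 in all libraries, Ifng at no more than 0.0225 CPM and Ifnb1 at no more than 0.0726 CPM. In F KO MTECs 1 gene of this list rose, Ifnlr1 (log2 0.62, SE 0.11, edgeR adjusted p = 0.00670), and 1 fell, Il10rb. With HDM, 7 genes of the list were lower and 1 was higher in F KO than in F WT MTECs, against 14.3% and 14.9% of all genes tested.

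Of 16 class II transcription and processing partners, 2 rose and 2 fell with HDM in F WT MTECs, where 43.1% of all genes tested were called, so the share called was below that of all genes. Ctsd, a lysosomal protease, rose from 1013 and 1075 CPM to 2452 and 2936 CPM (log2 1.37, SE 0.11, edgeR adjusted p = 2.77e-06), and Ctsl by 0.77. Ctss, the protease that removes the invariant chain in many antigen presenting cells, fell from 43.1 and 39.5 CPM to 23.1 and 25.0 CPM (log2 -0.78, SE 0.25, edgeR adjusted p = 0.0260), and Rfxank, a subunit of the factor that recruits Ciita, fell by 0.55. Rfx5, Rfxap, Nfya, Nfyb, Nfyc and Creb1 were not called there.

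Among 8 tested MHC-like chains outside the definition, 2 rose and 3 fell with HDM in F WT MTECs, against 20.6% and 22.4% of all genes tested. Cd1d1, which presents lipids to NKT cells, rose from 0.944 and 1.21 CPM to 3.49 and 3.93 CPM (log2 1.77, SE 0.29, edgeR adjusted p = 0.000501). Fcgrt, the neonatal Fc receptor chain that pairs with beta-2 microglobulin, fell from 26.4 and 20.1 CPM to 6.24 and 8.33 CPM (log2 -1.67, SE 0.26, edgeR adjusted p = 0.000361). Fcgrt also fell in F KO MTECs, from 22.9 and 15.7 CPM to 7.66 and 7.16 CPM (log2 -1.38, SE 0.25, edgeR adjusted p = 0.00631). Of 7 tested costimulatory and inhibitory ligands, Cd276 rose in both female genotypes, by 1.29 in WT and 0.64 in KO MTECs, Icosl fell by 1.63 and Vtcn1 by 0.95 in F WT, and Lgals9 fell by 0.74 in F KO MTECs.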

How the data were processed

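Whole-culture RNA of 16 MTEC libraries was examined in 8 groups of 2. The authors deposited raw read counts per gene, and per the labels and the submitters' processing notes Trimmomatic 0.36, STAR 2.5.2b, featureCounts, Subread 1.5.2, DESeq2 and GRCm38 were used; settings for strand and for reads that match several genes are not given in the sources used here. Gene identifiers were matched to GENCODE M21 (49056 of 49315). Counts were fitted in R 4.3.3 with edgeR 4.0.16 (quasi-likelihood test, TMM factors, filterByExpr by group, 1 model of 8 group means, 15993 genes) for 16 comparisons, with Benjamini-Hochberg adjustment over all genes tested in each comparison and a threshold of 0.05. The SE of a log2 fold change was its size divided by the square root of F. CPM used TMM-scaled totals, and TPM used exon lengths. Total counts ranged from 21860698 to 43442188 and the common biological coefficient of variation was 0.142. No 2 libraries of a group agreed within sampling noise. The fit was tested on simulated data. Members were named by role, with values per library in the compared groups and the range elsewhere for those at a mean of 10 CPM or more in some group and for Nlrc5 and Ciita, and full statistics for those called in an HDM response, a KO minus WT difference or a difference of responses. H2-Aa, H2-Ab1 and H2-Eb1 were added after their values were seen. The members and lists were chosen with earlier results of these data known. Alternatives were DESeq2 1.42.0, other scalings and filters, a fit of the compared libraries alone, a replicate block and leaving out each library. Promoter sequences were from RefSeq; Cd74, Ciita, H2-Ab1, H2-Q1, H2-T24, Nlrc5 and Tap2 had no entry. Some genes of the lists are not reported here by name.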

Additional observations from a re-analysis of the deposited data

Results flagged for a closer look

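The HDM response of 17 pairs of member and contrast differed between 2 groups by a test of the difference itself. Between F WT and M WT MTECs the female response was higher, on the log2 scale, by 2.1 for Nlrc5, 1.31 for B2m, 1.09 for H2-T23, 0.74 for Psmb8, 0.62 for Tapbp, 0.62 for H2-Q4, 0.62 for H2-T22, 0.51 for H2-K1 and 0.42 for H2-D1 (edgeR adjusted p from 3.85e-05 to 0.0460). Between F KO and F WT MTECs the difference was -1.26 for B2m, -1.17 for Psmb8, -0.9 for Tapbp, -0.9 for H2-Q4, -0.82 for H2-D1, -0.77 for H2-K1, -0.77 for H2-T23 and -0.55 for Psmb10 (edgeR adjusted p from 0.000237 to 0.0464). Both sets use the same 4 F WT libraries. Groups of 2 libraries were not searched for a library that stands apart.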

How the results depend on the processing

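Counts of members called in the 5 comparisons that share the F WT HDM libraries stayed within 1.5 times under every other tool, scaling and filter, apart from the difference of the F WT and M WT responses, at 9, which was 3 with only the compared libraries. HDM in F KO MTECs, at 1, gave 2 with DESeq2, 2 with upper-quartile scaling, 2 with at least 10 counts in every library, 5 without a filter and 5 with only the compared libraries. From 0, HDM in M WT gave 1 without a filter, KO against WT in M HDM gave 1 with DESeq2 and 2 without a filter, M against F gave 1 and 1 in WT naive and 3 and 4 in KO naive with DESeq2 and without a filter, and the difference of the F KO and M KO responses gave 2 with DESeq2, 5 without a filter, 1 with at least 10 counts in every library and 4 with only the compared libraries. Leaving out 1 library gave 10 to 14 for HDM in F WT (13), 0 for HDM in F KO, 9 to 13 for KO against WT in F HDM (13), 9 to 11 for M against F in WT HDM (12), 4 to 5 in KO HDM (10), 3 to 9 for F WT against M WT responses (9), 0 to 1 for F KO against M KO and 6 to 7 for F KO against F WT responses (8); all other counts were 0. A library left alone in its group is then taken to vary like the others. Cd74 with HDM in F WT changed sign, from -0.19 to 0.10, without F WT naive replicate 1, and its lowest value with 1 library left out was -0.45. The cause of these changes was not tested. Of 364 values of single genes with 1 library left out, 90 lost the call. The 364 include Cd74, H2-Aa, H2-Ab1 and H2-Eb1 with HDM in F WT and F KO MTECs, which had no call to lose. The shared replicate numbers are not stated to mark a common animal or day, and the correlation of replicate differences ran from -0.184 to 0.496 over the 12 pairs of groups; with the replicate number as a block the counts were 14 for HDM in F WT, 13 for KO against WT in F HDM, 8 for M against F in KO HDM, 8 for F WT against M WT and 7 for F KO against F WT responses. With crossed numbers, an alternative chosen after seeing the data, HDM in M KO and M against F in KO naive both gave 0. Genes near or under 1 CPM are limited by depth, such as Ciita in all groups and Nlrc5 outside F WT HDM MTECs. In F WT HDM MTECs Nlrc5 was at 4.83 and 1.89 CPM.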
